A study of Mus musculus with 30 samples.

Results

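The genes described here encode the enzymes that build cholesterol and fatty acids, together with the transcription factors and sterol regulators that control them. The 31 members were taken by symbol, and each matched a single row among the 55487 genes of the count files. They comprise 4 transcription factors and sterol regulators, 8 genes of the mevalonate and isoprenoid steps up to squalene, 10 genes that convert squalene into cholesterol, 4 genes of fatty acid synthesis and NADPH supply, and 5 genes of fatty acid elongation and desaturation. Bulk RNA-seq read counts were available for 30 libraries from mouse lung organoid cultures, in which CD45-/CD31-/Epcam+ epithelial cells of wild-type C57BL/6J mice were grown in Matrigel with CCL206 cells, an established line of mouse lung fibroblasts that had been treated to stop dividing. Cultures from 4 mice received vehicle, EC (a cocktail of cytokines found in exacerbations of chronic obstructive pulmonary disease), IPFc (a cocktail of factors linked to idiopathic pulmonary fibrosis, which itself contains TGF-β) or TGF-β alone at 2 ng/ml for 72 h, and were then re-sorted into an Epcam+ epithelial fraction (Epi) and an Epcam- fibroblast fraction (Fib). Each of the 8 groups held 4 libraries, 1 per mouse, except that Epi TGF-β lacked mouse 1 and Fib Vehicle lacked mouse 2, leaving 3 libraries in each. The mouse number names the donor of the epithelial cells, whereas all fibroblasts came from a single line. The p-values of the Fib fraction therefore measure the spread between co-cultures with that line, including their sorting, and no spread between fibroblast donors.

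Cholesterol is made from acetyl-CoA through mevalonate, isoprenoids and squalene, and fatty acids are made from the same precursor after its conversion to malonyl-CoA. Most of these genes are targets of the sterol regulatory element-binding proteins (SREBPs), which are held in the endoplasmic reticulum by Insig proteins when sterols are plentiful and are released to the nucleus when sterols are scarce. In the lung, alveolar type 2 (AT2) cells use this machinery to make the phospholipids of surfactant, and lipid-storing fibroblasts lie next to them.

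Because the members share regulators, the 250 bases upstream of the annotated start were read for the 24 members that had a promoter entry in RefSeq (GRCm38.p6). The following windows are shown because they belong to Hmgcs1, the member whose window held the SREBP core motif, to Insig1, the sterol sensor, and to Cyp51, Fads2 and Me1, 3 of the 6 members that rose in the Epi fraction under EC or IPFc. Of the other such members, Acat2 and Dhcr7 had windows that are not shown, and Fads1 had no entry. All lie directly upstream of the gene's annotated start, outside the transcribed region, and are written 5′ to 3′ on the gene's strand. Capitals mark the SREBP core motif (TCACNCCAC) and the CCAAT box (CCAAT), each searched on both strands.
Hmgcs1, chr13:119690101-119690350, plus strand: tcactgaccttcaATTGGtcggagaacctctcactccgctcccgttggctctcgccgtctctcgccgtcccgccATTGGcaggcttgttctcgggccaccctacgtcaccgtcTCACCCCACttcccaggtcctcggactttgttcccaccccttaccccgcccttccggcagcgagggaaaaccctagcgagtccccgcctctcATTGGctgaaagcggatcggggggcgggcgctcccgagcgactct
Insig1, chr5:28071162-28071411, plus strand: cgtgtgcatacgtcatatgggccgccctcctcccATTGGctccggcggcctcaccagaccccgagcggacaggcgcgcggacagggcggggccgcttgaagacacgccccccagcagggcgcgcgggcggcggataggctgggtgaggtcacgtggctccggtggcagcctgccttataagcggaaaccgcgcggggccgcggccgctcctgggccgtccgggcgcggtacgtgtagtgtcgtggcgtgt
Cyp51, chr5:4104698-4104947, minus strand: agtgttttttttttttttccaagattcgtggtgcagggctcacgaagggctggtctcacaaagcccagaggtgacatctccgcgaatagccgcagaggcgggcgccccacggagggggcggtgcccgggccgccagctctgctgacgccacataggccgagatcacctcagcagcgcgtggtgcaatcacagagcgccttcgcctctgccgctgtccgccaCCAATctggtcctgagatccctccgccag
Fads2, chr19:10101504-10101753, minus strand: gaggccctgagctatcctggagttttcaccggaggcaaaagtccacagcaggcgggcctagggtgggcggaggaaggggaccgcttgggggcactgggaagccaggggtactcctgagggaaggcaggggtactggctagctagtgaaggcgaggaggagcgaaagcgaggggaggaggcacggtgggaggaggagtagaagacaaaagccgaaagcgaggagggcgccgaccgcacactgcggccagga
Me1, chr9:86695915-86696164, minus strand: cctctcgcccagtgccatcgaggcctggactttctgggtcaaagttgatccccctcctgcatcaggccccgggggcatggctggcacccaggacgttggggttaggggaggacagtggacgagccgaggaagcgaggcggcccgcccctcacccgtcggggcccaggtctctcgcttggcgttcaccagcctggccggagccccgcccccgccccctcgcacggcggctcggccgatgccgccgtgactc
The CCAAT box was present in 19 of the 24 members (79.2%), against 37.5% of the 27025 genes with a window. The GC box (GGGCGG) was present in 20 of 24 (83.3%) against 35.4%, and the E-box (CACGTG) in 4 of 24 (16.7%) against 6.86%. The SREBP core was found in 1 of 24 (4.17%) against 1.22%, at position -137 of Hmgcs1. The windows of Fads2 and Me1 shown above held neither the SREBP core nor a CCAAT box, although another annotated start of Me1 had a CCAAT box upstream. These matches describe the letters of the windows only.

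Library totals ranged from 5113828 to 20317181 reads. Member counts ranged from 9 reads (Fdps) to 40770 reads (Scd1) in a library, and the next lowest member, Dhcr7, had at least 73 reads in every library. The sorted fractions were not pure. From genes that mark one fraction, the RNA of the other fraction was estimated at 19.0% ± 6.18 (SD, n = 3) in Fib Vehicle, 41.2% ± 9.32 (n = 4) in Fib EC, 16.5% ± 7.98 (n = 4) in Fib IPFc and 1.94% ± 1.09 (n = 4) in Fib TGF-β. In the Epi fraction it was 5.97% ± 2.45 (n = 4) with vehicle, 11.5% ± 4.88 (n = 4) with EC, 11.3% ± 5.39 (n = 4) with IPFc and 28.7% ± 2.67 (n = 3) with TGF-β. The estimated admixture therefore moved with treatment, in opposite directions in the Fib and Epi fractions under TGF-β. The Epi estimates rest on fibroblast markers that include collagens, Fn1 and Vim. Expression of these markers by the epithelial cells themselves would raise the estimate and was not tested. The subtracted values of Epi TGF-β assume that it did not occur. The summed level of 12 AT2 markers ranged from 14200 to 17700 CPM (reads scaled for library size) in Epi Vehicle and from 3040 to 5990 CPM in Epi TGF-β, without overlap. It was also lower without overlap in Epi EC, at 10800 to 13300 CPM, and ranged from 11100 to 15100 CPM in Epi IPFc. In the Fib fraction the AT2 sum was 6060 to 8280 CPM with vehicle, 7030 to 9920 CPM with EC, 2770 to 5940 CPM with IPFc and 228 to 645 CPM with TGF-β. The Fib shares were estimated from general epithelial markers, not from AT2 markers, so subtraction may leave RNA of AT2 cells in the Fib values. In bulk libraries, fewer cells of a type and less RNA per cell cannot be told apart. In vehicle cultures, all 15 epithelial markers had a mean of at least 1 CPM in the Epi fraction and 19 of 21 fibroblast markers in the Fib fraction, whereas the summed level of 10 endothelial markers stayed at or below 32.4 CPM in every library. The summed level of 14 immune markers was 329 to 380 CPM in Epi Vehicle and 501 to 601 CPM in Epi EC, and 77.8 to 106 CPM in Fib Vehicle and 207 to 271 CPM in Fib EC, in both fractions without overlap.

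In addition, a pair of libraries stood apart from their groups. In Fib EC of mouse 1, the median log2 ratio to the other libraries of the group was lower for transcripts of at least 5000 bases than for those under 1500 bases, by a difference of -1.45. In Epi EC of mouse 4 this difference was -0.65. It was -0.54 in Fib Vehicle of mouse 1, and all other libraries lay between -0.30 and 0.61. Counts of members and the called effects of EC are therefore given with and without the library concerned, and the main treatment effects are given as sequenced and after the estimated RNA of the other fraction was subtracted. Fib Vehicle of mouse 1, in a group of 3 libraries, was left out only together with all libraries of mouse 1.

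**Figure D1:**
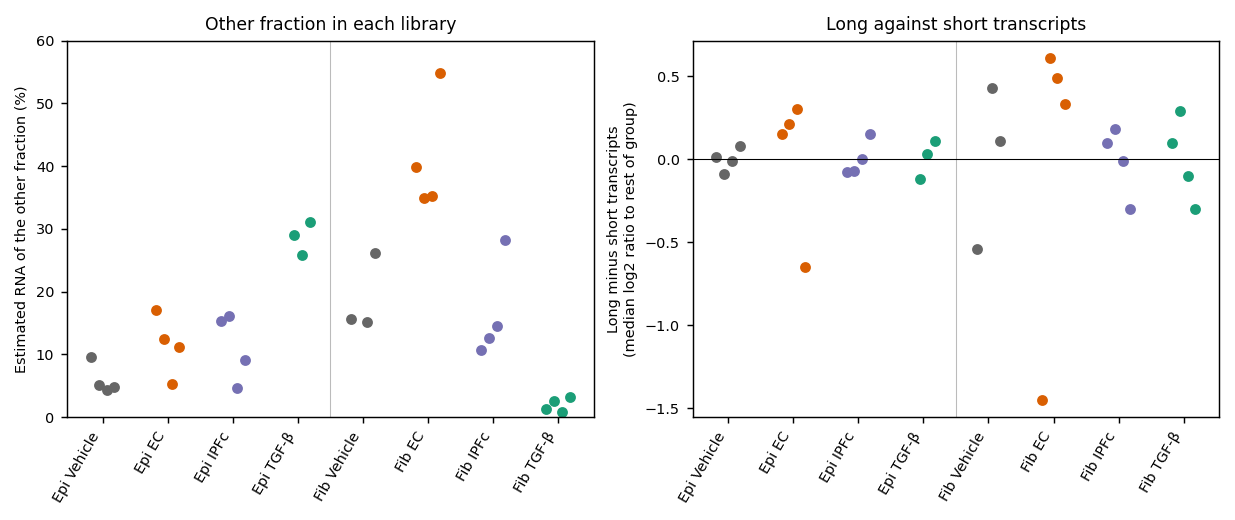
Estimated RNA of the other fraction in each library (left, percent) and the level of long relative to short transcripts against the rest of the group (right, median log2 ratio), by group, with 1 point per library ordered by mouse. Fib EC libraries hold the highest share, with a mean of 41.2%, Fib TGF-β the lowest at 1.94%, and Fib EC of mouse 1 lies at -1.45 on the right.

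In vehicle cultures, most members were expressed at a higher level in the Epi than in the Fib fraction. Of 31 members, 23 were higher in Epi, where 27.8% of all genes tested were called higher, and 2 (Fads1 and Fads2) were lower, where 28.2% were called lower, by edgeR's quasi-likelihood test at an adjusted p below 0.05. The median log2 difference of the members was 0.85, against 0.02 over all genes. After subtraction of the other fraction's RNA, 16 members were called higher (21.2% of all genes) and 2 lower (26.0% of all genes), and the median was 1.14.

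Cyp51, the sterol 14-demethylase, differed most between the fractions. Its level was 211.6, 215.2, 221.7 and 275.9 CPM in Epi Vehicle and 50.5, 57.3 and 57.9 CPM in Fib Vehicle. The groups were far apart, with a log2 difference of 2.09 ± 0.18 (SE; adjusted p = 1.1e-10). Pmvk, which phosphorylates mevalonate phosphate, was 1.86 ± 0.22 higher (adjusted p = 4.6e-08), and Elovl6, which extends palmitate to stearate, was 1.56 ± 0.15 higher (adjusted p = 1.4e-09). Me1, the malic enzyme that supplies NADPH, was 1.40 ± 0.15 higher in Epi (adjusted p = 9.0e-09).

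The delta-5 and delta-6 desaturases that make polyunsaturated fatty acids went the other way. Fads1 was found at 98.5, 110.9, 117.3 and 111.3 CPM in Epi Vehicle and at 213.2, 255.4 and 229.2 CPM in Fib Vehicle, a difference of -1.11 ± 0.10 (adjusted p = 2.7e-10). Fads2 differed by -0.51 ± 0.11 (adjusted p = 3.6e-04), with overlapping groups. For Insig1, Acat2, Nsdhl, Tm7sf2, Msmo1 and Fdps no difference between the fractions was called, and their log2 differences lay between -0.07 and 0.36.

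Per kilobase of transcript, the desaturase genes Scd1 and Scd2 had the highest levels of the members in both fractions, at 363.3 and 205.3 CPM per kb in Epi Vehicle and 147.6 and 83.7 CPM per kb in Fib Vehicle. They were followed in Epi Vehicle by Acly (115.0 CPM per kb), which makes cytosolic acetyl-CoA, and by Fasn (101.4 CPM per kb), the fatty acid synthase. Fdps was lowest, at 3.71 CPM per kb. Of the 31-base windows of its transcript, 77.5% also occur elsewhere in the GRCm39 genome, and the same was true of 94.9% for Idi1, 72.3% for Acaca, 45.4% for Insig1, 37.8% for Acat2, 37.0% for Me1 and 25.6% for Fdft1. Counts of these genes may therefore be incomplete or shared with copies, depending on how reads with several matches were counted, which is not given in the sources used here.

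**Figure D2:**
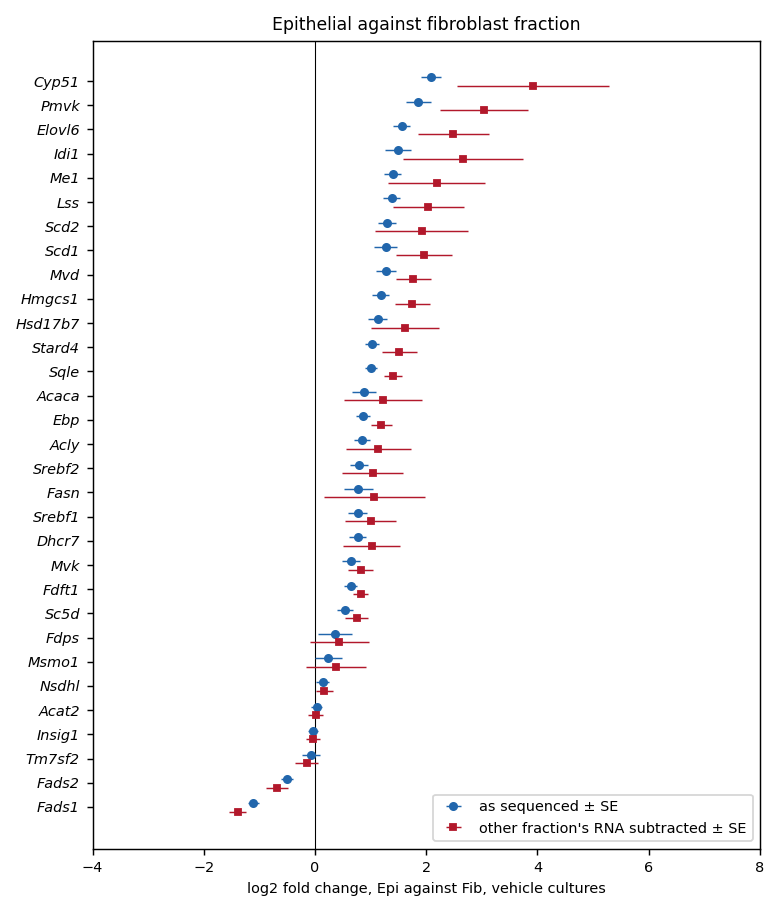
log2 fold change of each member between the Epi and Fib fractions of vehicle cultures (4 and 3 libraries), as sequenced (blue circles) and with the other fraction's RNA subtracted (red squares), with SE. Cyp51 is farthest to the right at 2.09 and Fads1 farthest to the left at -1.11.

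The level of the members in every library is shown in the map of values centred on each gene's mean. The group mean was highest in Epi EC for 13 members and in Epi IPFc for 10. It was lowest in Fib TGF-β for 17 members, among them Pmvk, Idi1, Cyp51, Lss, Me1 and Scd1, and in Fib Vehicle for 9.

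**Figure D3:**
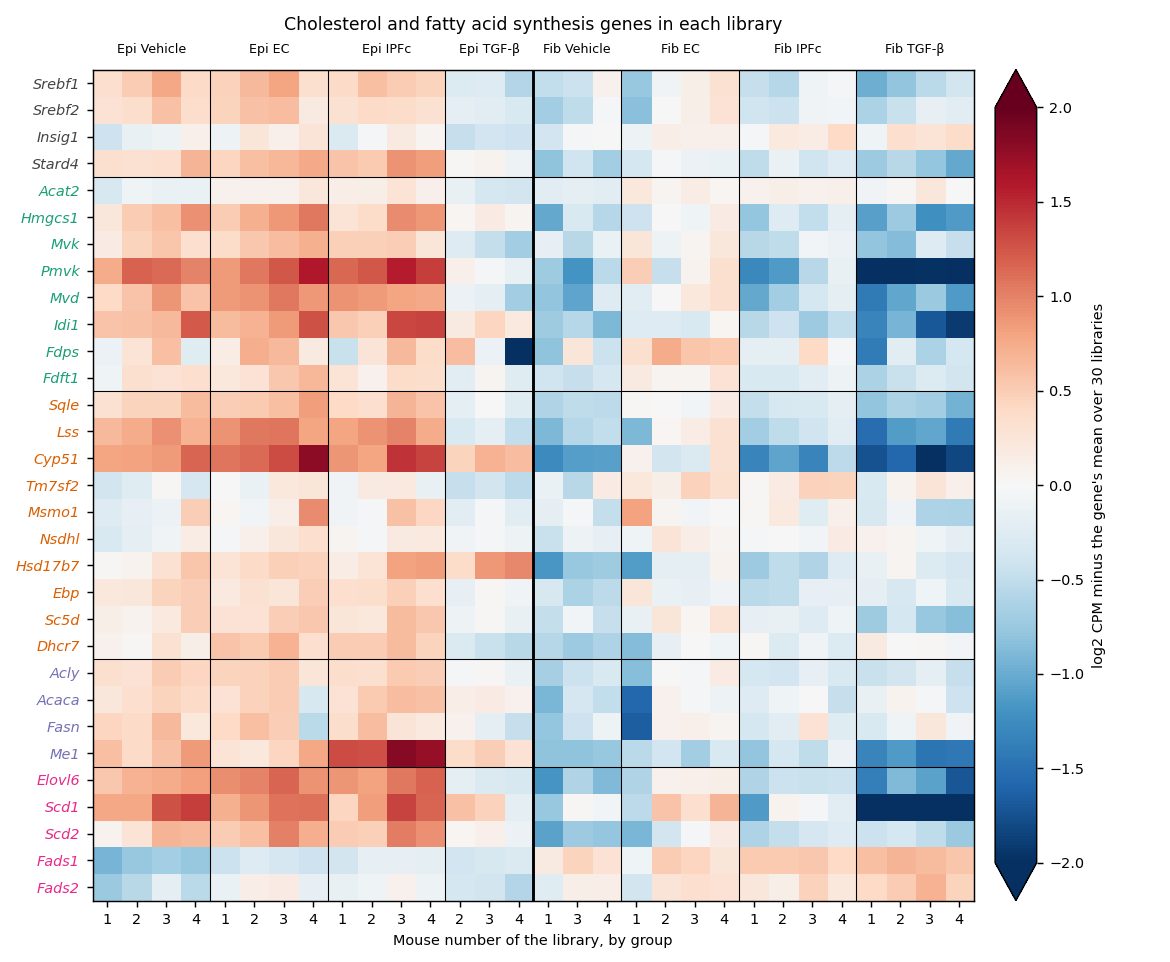
log2 CPM of each member minus its mean over 30 libraries, in rows ordered by role (from top: regulators, steps to squalene, squalene to cholesterol, fatty acid synthesis, elongation and desaturation) and in columns by group and mouse. Scd1 fell to 82.5 to 192.1 CPM in the 4 Fib TGF-β libraries, and Me1 reached 455.4 to 662.4 CPM in the 4 Epi IPFc libraries.

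The first comparison asks how TGF-β changed lipid synthesis genes in the epithelial fraction. TGF-β lowered the members broadly: 21 of 31 fell (67.7%, where 20.1% of all genes were called lower) and 2 rose (6.45%, where 21.0% were called higher). The median log2 fold change was -0.41, against 0.03 over all genes. With the fibroblast RNA subtracted, 17 members fell (54.8%, against 15.5% of all genes), 1 rose (3.23%, against 10.6% of all genes), and the median was -0.36. The AT2 marker sum fell in the same libraries, as given above, and its part in the result was not tested.

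All 4 regulators fell. Srebf1, the SREBP that drives fatty acid genes, was found at 218.3, 245.5, 296.3 and 225.7 CPM in Epi Vehicle and at 143.2, 144.7 and 114.4 CPM in Epi TGF-β. The groups did not overlap, and the fold change was -0.88 ± 0.09 (adjusted p = 2.2e-07). It was nearly the same with the fibroblast RNA subtracted, at -0.84 ± 0.11. Srebf2, which drives the cholesterol genes, measured 353.7, 370.3, 435.7 and 368.3 CPM with vehicle and 255.7, 249.4 and 233.8 CPM with TGF-β (-0.61 ± 0.09, adjusted p = 2.5e-05). Each treated library was again below every vehicle library, and the change was -0.60 ± 0.11 after subtraction. Insig1 measured 174.7, 209.9, 217.7 and 249.7 CPM with vehicle and 170.4, 179.1 and 175.6 CPM with TGF-β. It fell by 0.32 (SE 0.09, adjusted p = 0.00624), with groups that overlap, and by 0.72 after subtraction. Stard4, a sterol carrier, fell by 0.41 (adjusted p = 0.00321). After subtraction its change was -0.23 (adjusted p = 0.111).

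Of the 8 genes from acetyl-CoA to squalene, 6 fell. Hmgcs1, which condenses acetyl-CoA units into HMG-CoA, was found at 309.3, 374.0, 399.0 and 493.6 CPM with vehicle and at 271.1, 293.9 and 272.8 CPM with TGF-β. The groups did not overlap (-0.54 ± 0.10, adjusted p = 2.2e-04), and the change was -0.30 ± 0.10 after subtraction (adjusted p = 0.0331). The successive mevalonate enzymes fell more: Mvk by 0.83 (SE 0.12), Pmvk by 1.07 (SE 0.13) and Mvd by 0.90 (SE 0.12), with adjusted p-values of 9.9e-06, 1.1e-06 and 3.6e-06. All 3 stayed called after subtraction, at -0.83, -0.75 and -0.74. Idi1, the isoprenoid isomerase, and Fdft1, the squalene synthase, fell by 0.52 and 0.37, and neither was called after subtraction (adjusted p = 0.261 and 0.0648). Acat2 and Fdps were not called, at -0.10 ± 0.10 and -0.41 ± 0.31.

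Among the 10 genes from squalene to cholesterol, 6 fell and 1 rose. Lss, which closes squalene epoxide into lanosterol, had the smallest adjusted p-value of all members. Its level was 140.9, 150.6, 169.9 and 146.2 CPM with vehicle and 72.9, 78.4 and 64.2 CPM with TGF-β, so that the groups were far apart. The fold change was -1.07 ± 0.09 (adjusted p = 3.3e-09) and -0.87 ± 0.08 after subtraction. Sqle, the squalene epoxidase, was found at 194.0, 212.1, 212.9 and 242.5 CPM with vehicle and at 138.9, 157.6 and 132.2 CPM with TGF-β. It fell by 0.59 (SE 0.10, adjusted p = 4.5e-05), without overlap, and by 0.43 after subtraction. Dhcr7, the last reductase, fell by 0.52 (adjusted p = 9.3e-04), and Ebp, a sterol isomerase, by 0.40 (adjusted p = 0.00299), with changes of -0.72 and -0.36 after subtraction. Cyp51 and Sc5d fell by 0.34 and 0.29, and both calls were lost on subtraction, with Cyp51 then at -0.01 ± 0.11. Tm7sf2, a sterol reductase, was called only after subtraction (-0.49 ± 0.16, adjusted p = 0.0366). Msmo1 and Nsdhl, which remove methyl groups from the sterol ring, were not called, at -0.18 ± 0.15 and 0.03 ± 0.10.

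Hsd17b7, a sterol ketone reductase, was the exception. It was found at 65.3, 66.8, 78.9 and 93.9 CPM with vehicle and at 82.8, 116.5 and 123.9 CPM with TGF-β. It was higher in 3 of 3 mice although the groups overlapped (0.46 ± 0.11, adjusted p = 0.00144), and the difference was 0.66 ± 0.12 after subtraction.

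In the fatty acid branch, Acly and Fasn fell, whereas Acaca, which makes malonyl-CoA, and Me1 were not called, at -0.21 ± 0.13 and -0.22 ± 0.11. Acly was found at 482.8, 474.4, 549.2 and 521.3 CPM with vehicle and at 383.4, 394.1 and 355.0 CPM with TGF-β (-0.39 ± 0.09, adjusted p = 0.00134). Fasn was found at 1101.4, 1058.5, 1274.1 and 943.7 CPM with vehicle and at 860.4, 715.8 and 589.2 CPM with TGF-β (-0.56 ± 0.14, adjusted p = 0.00293). Neither gene overlapped between the groups, and both were called after subtraction (adjusted p = 0.031 and 0.0187).

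Of the elongation and desaturation genes, Elovl6, Scd1 and Scd2 fell. Elovl6 was found at 89.1, 99.1, 102.7 and 107.5 CPM with vehicle and at 53.1, 49.8 and 48.9 CPM with TGF-β (-0.96 ± 0.10, adjusted p = 2.5e-07). Scd1, the main delta-9 desaturase, was found at 1486.8, 1474.8, 2091.1 and 2248.5 CPM with vehicle and at 1293.5, 1188.3 and 760.8 CPM with TGF-β (-0.81 ± 0.16, adjusted p = 3.7e-04). Scd2, a second delta-9 desaturase, was found at 866.7, 994.3, 1326.4 and 1292.9 CPM with vehicle and at 845.9, 888.2 and 759.3 CPM with TGF-β (-0.45 ± 0.10, adjusted p = 0.00157). Elovl6 and Scd1 were separated between the groups, whereas Scd2 overlapped. The Scd1 call was lost on subtraction (-0.43 ± 0.18, adjusted p = 0.103), whereas Elovl6 (-0.76 ± 0.10) and Scd2 (-0.32 ± 0.11) were still called.

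The polyunsaturated desaturases depended most on the subtraction. Fads1 was higher with TGF-β as sequenced, at 144.1, 151.3 and 153.8 CPM against 98.5 to 117.3 CPM with vehicle (0.46 ± 0.08, adjusted p = 1.7e-04). After subtraction of the fibroblast RNA, in which Fads1 is more abundant, the change was -0.04 ± 0.09. Fads2 was not called as sequenced (0.07 ± 0.09) and was called lower after subtraction (-0.51 ± 0.11, adjusted p = 0.00321).

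**Figure D4:**
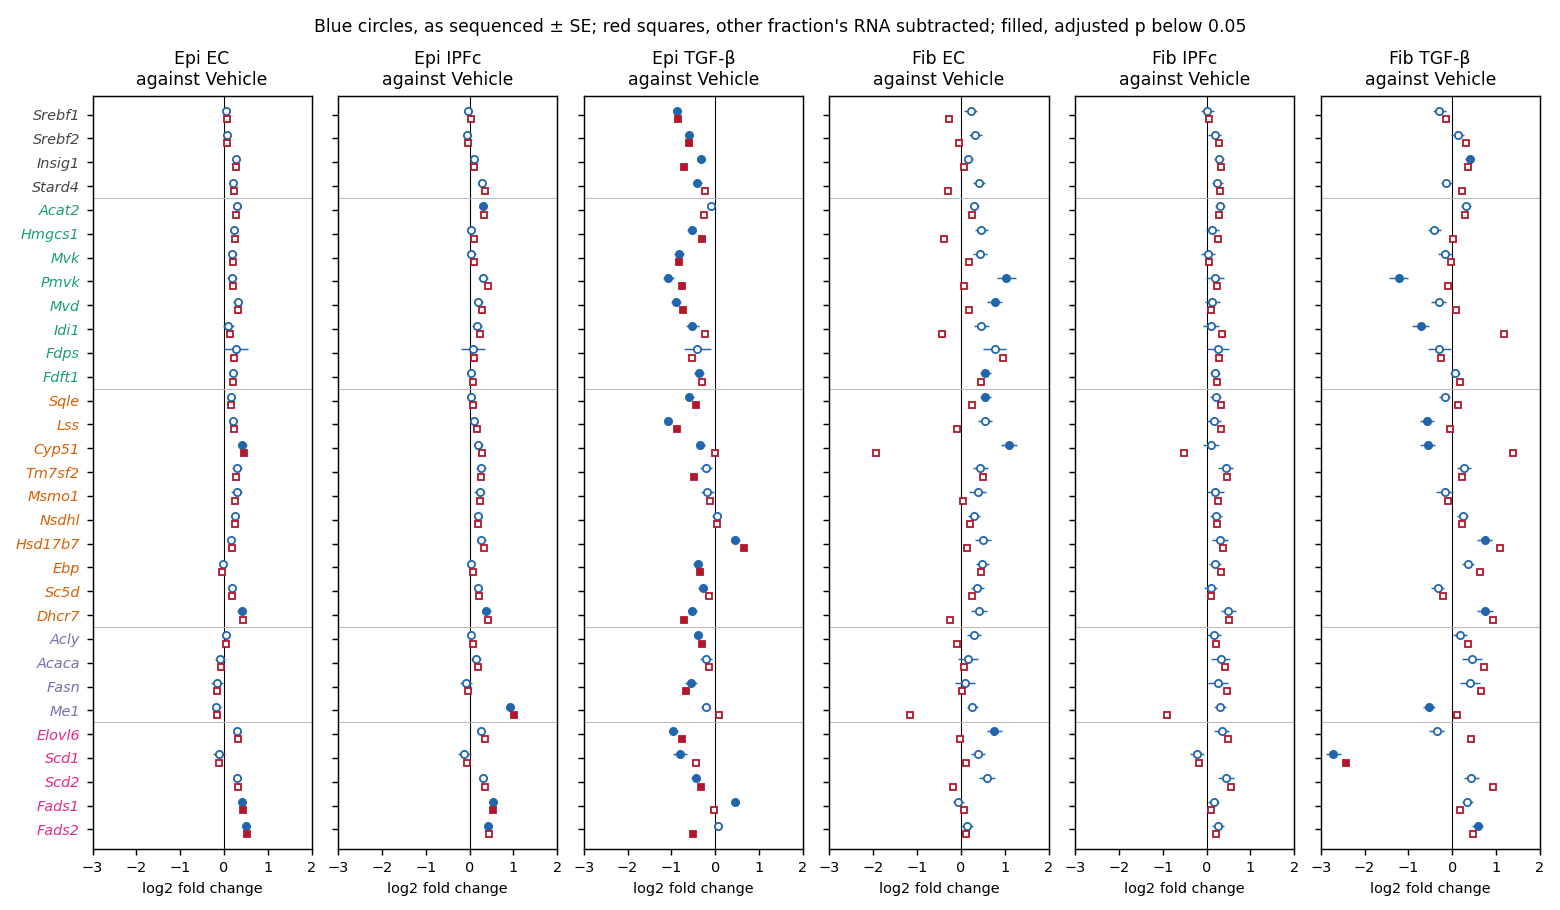
log2 fold change of each member against vehicle in 6 comparisons, as sequenced with SE (blue circles) and with the other fraction's RNA subtracted (red squares), where filled symbols have an adjusted p below 0.05. In Epi TGF-β 21 members lie to the left as filled blue circles, and in Fib TGF-β Scd1 lies at -2.71.

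The cocktails were then compared with vehicle in the epithelial fraction, to see whether they acted on the same genes as TGF-β alone. Under IPFc, 5 of 31 members rose (16.1%, where 2.57% of all genes were called higher) and none was called lower. At an unadjusted p below 0.05 there were 12 members, and the median fold change was 0.18. DESeq2 called 5 members higher (2.86% of all genes) and 0 lower. Here and below, no share over all genes was computed for counts at an unadjusted p, so these have no background. Without Epi EC of mouse 4, which shares the estimate of spread, 10 members were called higher (3.49% of all genes). After subtraction of the fibroblast RNA 2 were (0.626% of all genes). Without mouse 1, 2 members were called, Me1 and Fads1 (1.95% of all genes in either direction). Without mouse 2 or mouse 3 these and Fads2 were called (2.12% and 3.06% of all genes).

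Me1 responded most. It was found at 282.8, 244.5, 279.7 and 339.7 CPM in Epi Vehicle, at 463.4, 455.4, 662.4 and 629.6 CPM in Epi IPFc, and at 225.9, 216.1, 252.1 and 321.9 CPM in Epi EC. All IPFc libraries lay above all vehicle and EC libraries. The fold change with IPFc was 0.92 ± 0.10 against vehicle (adjusted p = 7.8e-06; higher in 4 of 4 mice) and 1.02 ± 0.10 after subtraction. It was the single member called between the cocktails, at -1.11 ± 0.10 for EC against IPFc (adjusted p = 2.5e-07), where 2.40% of all genes were called lower. With EC against vehicle it was -0.18 ± 0.10 (adjusted p = 0.454), and with TGF-β -0.22 ± 0.11 (adjusted p = 0.139).

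Fads1 and Fads2 rose with both cocktails. Fads1 was found at 146.4, 167.0, 167.0 and 163.7 CPM with IPFc and at 139.5, 157.2, 148.7 and 141.2 CPM with EC, above each of the vehicle values of 98.5 to 117.3 CPM. Its fold change was 0.54 ± 0.08 with IPFc (adjusted p = 1.4e-04) and 0.42 ± 0.08 with EC (adjusted p = 0.00145). Fads2 was found at 112.7, 128.3, 165.4 and 129.2 CPM with vehicle, at 169.0, 177.5, 198.9 and 176.2 CPM with IPFc and at 170.8, 206.2, 211.8 and 167.7 CPM with EC, again without overlap. Its fold change was 0.43 ± 0.08 with IPFc (adjusted p = 0.00388) and 0.50 ± 0.08 with EC (adjusted p = 6.8e-04). With the fibroblast RNA subtracted, the 4 fold changes lay between 0.43 and 0.53, and the adjusted p for Fads2 with IPFc was 0.053, so that this call was lost. The comparisons with EC and IPFc share their vehicle libraries.

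Under EC, 4 of 31 members rose (12.9%, where 1.96% of all genes were called higher) and none was called lower. Without mouse 1 or without mouse 2 the count was 2, both times Fads1 and Fads2 (2.33% and 2.82% of all genes in either direction). DESeq2 called 9 members higher (2.46% of all genes) and 0 lower, 16 had an unadjusted p below 0.05 and the median fold change was 0.20. Besides Fads1 and Fads2, the members that rose were Cyp51 and Dhcr7. Cyp51 was found at 211.6, 215.2, 221.7 and 275.9 CPM with vehicle and at 256.7, 269.3, 304.0 and 424.4 CPM with EC, higher in 4 of 4 mice with overlapping groups (0.42 ± 0.10, adjusted p = 0.0152). Dhcr7 was found at 27.3 to 33.1 CPM with vehicle and at 33.7 to 43.5 CPM with EC, without overlap (0.40 ± 0.10, adjusted p = 0.0215, and 0.44 ± 0.11 with an adjusted p of 0.0596 after subtraction). Dhcr7 also rose with IPFc (0.38 ± 0.10, adjusted p = 0.0332), as did Acat2, the cytosolic thiolase (0.31 ± 0.09, adjusted p = 0.0449), and neither was called after subtraction, when their folds were 0.42 and 0.33 (adjusted p = 0.107 and 0.171).

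The library with low long transcripts, Epi EC of mouse 4, had 559.9 CPM of Fasn, against 1076.2 to 1238.4 CPM in the other Epi EC libraries, and 92.1 CPM of Acaca, against 140.1 to 164.2 CPM. Without it, 7 members were called higher with EC (2.17% of all genes), and the fold changes of Fads1, Fads2, Cyp51 and Dhcr7 were 0.46, 0.54, 0.33 and 0.44, all called. Me1 was then at -1.18 ± 0.10 for EC against IPFc. The shifts of the AT2 and immune marker sums with EC are given above, and their part in these results was not tested. Srebf1 and Srebf2 were not called with either cocktail: their fold changes were 0.05 ± 0.08 and 0.06 ± 0.08 with EC, where Srebf1 measured 236.2, 271.3, 299.3 and 214.5 CPM. With EC, Fasn and Scd1 were at -0.16 ± 0.13 and -0.11 ± 0.14.

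**Figure D5:**
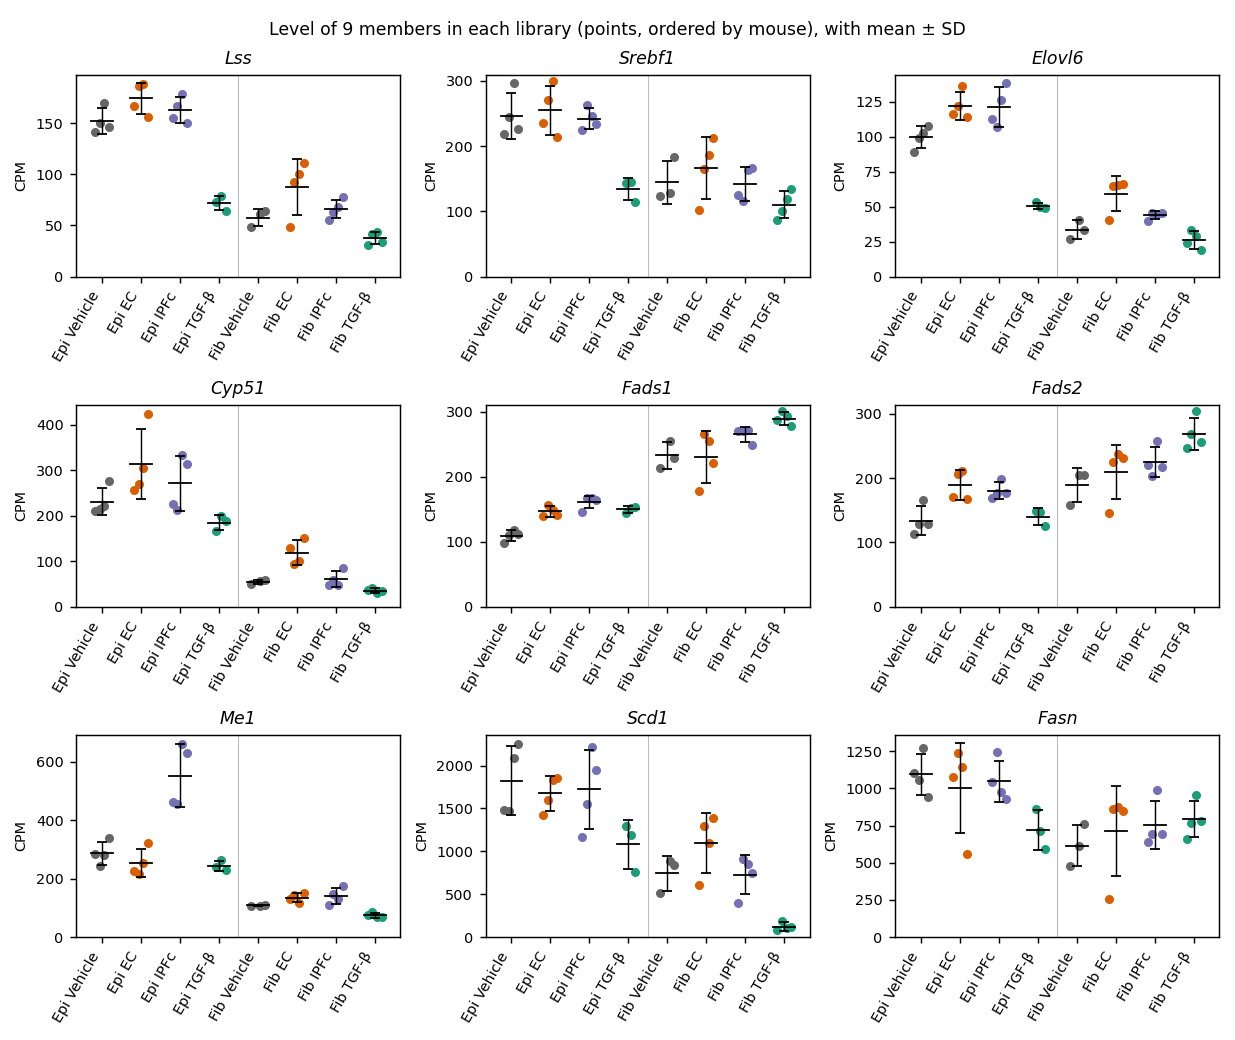
CPM of 9 members in each library (points, ordered by mouse within a group) with the mean and SD of each of the 8 groups; all axes start at 0. Me1 is highest in Epi IPFc (mean 552.7 CPM), Lss, Srebf1 and Elovl6 are lower in Epi TGF-β than in the other Epi groups, and Scd1 is lowest in Fib TGF-β (mean 121.9 CPM).

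The same treatments were examined in the fibroblast fraction. Scd1 was much lower with TGF-β in this sorted fraction. Its level was 509.7, 881.0 and 834.5 CPM in Fib Vehicle and 82.5, 192.1, 100.4 and 112.7 CPM in Fib TGF-β, with no overlap and lower values in 3 of 3 mice. The fold change was -2.71 ± 0.17 (adjusted p = 5.2e-09), which is 0.152 of the vehicle level. After subtraction of the epithelial RNA it was -2.42 ± 0.56 (adjusted p = 0.0335). This was also the highest adjusted p of Scd1 among the alternatives that were run. The AT2 marker sum was lower without overlap in the same libraries, at 228 to 645 CPM against 6060 to 8280 CPM in Fib Vehicle. The part of AT2 cell RNA in the fall of Scd1 was not tested.

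In all, 4 members rose in Fib TGF-β (12.9%, where 6.39% of all genes were called higher) and 6 fell (19.4%, where 12.8% were called lower). Besides Scd1, the members that fell were Pmvk (-1.22 ± 0.22), Idi1 (-0.72 ± 0.19), Lss (-0.57 ± 0.16), Cyp51 (-0.56 ± 0.18) and Me1 (-0.53 ± 0.13). Pmvk was found at 18.1, 13.0 and 20.5 CPM with vehicle and at 5.78, 5.14, 7.51 and 7.13 CPM with TGF-β, and Me1 at 107.8, 107.8 and 110.3 CPM with vehicle and at 74.7, 85.1, 68.1 and 69.6 CPM with TGF-β, both without overlap. These 5 genes were all more abundant in the Epi fraction of vehicle cultures, by 1.38 to 2.09 on the log2 scale. None of them was called after the epithelial RNA was subtracted, when their changes had SEs of 0.85 to 1.76 and Scd1 alone remained (3.64% of all genes were then called lower).

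The members that rose in Fib TGF-β were Fads2, Dhcr7, Hsd17b7 and Insig1. Fads2 was found at 158.7, 204.5 and 205.3 CPM with vehicle and at 247.3, 268.1, 304.5 and 256.5 CPM with TGF-β (0.58 ± 0.13, adjusted p = 0.00443). Dhcr7 was found at 18, 16.2 and 17.4 CPM with vehicle and at 30.2, 26.7, 27.2 and 25.8 CPM with TGF-β (0.75 ± 0.18, adjusted p = 0.00538). Hsd17b7 was found at 28.6, 38.0 and 39.2 CPM with vehicle and at 57.7, 66.5, 52.7 and 50.8 CPM with TGF-β (0.74 ± 0.18, adjusted p = 0.00738). For these 3 genes every treated library lay above every vehicle library. Insig1 was found at 179.0, 228.8 and 235.2 CPM with vehicle and at 219.5, 294.5, 281.3 and 301.2 CPM with TGF-β, with overlap (0.40 ± 0.11, adjusted p = 0.0153). After subtraction the 4 fold changes were 0.48, 0.93, 1.10 and 0.37, with adjusted p-values of 0.297, 0.701, 0.674 and 0.134. Without mouse 3, 3 members were called, Scd1, Pmvk and Hsd17b7 (11.9% of all genes in either direction). Without Fib EC of mouse 1, 10 members were called higher and 7 lower, where 27.6% of all genes were called in either direction.

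Srebf1 and Srebf2 were not called in Fib TGF-β, at -0.29 ± 0.14 and 0.13 ± 0.15. Srebf2 measured 178.1, 203.6 and 286.1 CPM with vehicle and 187.2, 213.7, 259.1 and 247.3 CPM with TGF-β, all of them within the range of the vehicle libraries. Hmgcs1, Sqle, Acly, Fasn and Scd2 were likewise not called, with fold changes between -0.41 and 0.44.

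Under EC, 6 of 31 members rose in the Fib fraction (19.4%, where 4.28% of all genes were called higher) and none was called lower. The median was 0.41, 22 members had an unadjusted p below 0.05, and DESeq2 called 14 higher (6.80% of all genes) and 0 lower. Cyp51 was found at 50.5, 57.3 and 57.9 CPM with vehicle and at 129.7, 95.1, 100.2 and 151.8 CPM with EC (1.09 ± 0.18, adjusted p = 0.00186). Pmvk was found at 41.6, 21.5, 31.3 and 36.9 CPM in Fib EC, above the vehicle values of 13.0 to 20.5 CPM (1.04 ± 0.21, adjusted p = 0.00664). Fdft1 was found at 92.9, 89.3 and 98.0 CPM with vehicle and at 138.9, 127.4, 128.1 and 151.0 CPM with EC (0.56 ± 0.12, adjusted p = 0.00767). None of the 3 overlapped between the groups. Mvd, Elovl6 and Sqle rose by 0.77, 0.76 and 0.56.

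The epithelial share of these libraries was 41.2% on average, against 19.0% with vehicle, and all 6 genes were more abundant in the Epi fraction. After subtraction no member was called in either direction, where 0.194% of all genes were called; 2 members then had an unadjusted p below 0.05 and the median was 0.07. The subtracted values were imprecise, with Cyp51 at -1.93 ± 1.91. In the library of mouse 1, Fasn measured 258.5 CPM, against 849.7 to 875.3 CPM in the other Fib EC libraries. Without this library 18 members were called higher as sequenced (6.93% of all genes). After subtraction 0 were called (0.637% of all genes in either direction), when 12 had an unadjusted p below 0.05. The fold changes of Cyp51, Pmvk, Fdft1, Mvd, Elovl6 and Sqle were then 1.00, 0.85, 0.52, 0.77, 0.87 and 0.54 as sequenced. The immune marker sum was also higher in Fib EC, as given above, and its part was not tested. Without mouse 3 or mouse 4, 1 member, Cyp51, was called as sequenced (1.21% and 1.30% of all genes in either direction). EC against IPFc gave 5 members higher (16.1%, where 6.28% of all genes were called higher), namely Cyp51, Pmvk, Mvd, Scd1 and Fdft1. After subtraction it gave 0 (0.0972% of all genes in either direction), when 3 had an unadjusted p below 0.05.

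IPFc changed no member in the Fib fraction by edgeR (0 of 31, where 0.449% of all genes were called in either direction). At an unadjusted p below 0.05 there were 6 members, and DESeq2 called 0 (0.997% of all genes in either direction). Without Fib EC of mouse 1, 1 member, Dhcr7, was called higher (0.942% of all genes). The fold changes lay between -0.21 and 0.50, with a median of 0.20. Srebf1, for example, measured 125.2, 115.7, 162.9 and 167.1 CPM with IPFc and 122.9, 128.3 and 183.0 CPM with vehicle, with overlapping groups.

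Whether the fractions responded differently was tested directly by an interaction term. The fit had the mouse as a block within each fraction. It did not model that an Epi and a Fib library can come from the same culture. For TGF-β, 13 members responded more negatively in Epi than in Fib (41.9%, where 7.36% of all genes were called in this direction) and 1, Scd1, less negatively (20.2% of all genes). The median difference of the members was -0.40, against 0.21 over all genes. Scd1 changed by -0.81 in Epi and by -2.71 in Fib, a difference of 1.93 ± 0.25 (adjusted p = 1.4e-06), which was 1.96 ± 0.64 after subtraction (adjusted p = 0.047). The AT2 marker sum also fell in both fractions with TGF-β, as given above, and subtraction may leave RNA of AT2 cells in the Fib values. The part of AT2 cell RNA in this difference was not tested.

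Dhcr7 moved in opposite directions, by -0.52 in Epi and 0.75 in Fib (difference -1.25 ± 0.21, adjusted p = 3.9e-05). Insig1 did so as well, at -0.32 in Epi and 0.40 in Fib (difference -0.69 ± 0.13, adjusted p = 1.7e-04, and -1.12 ± 0.18 after subtraction). Ebp, Srebf2, Scd2, Fasn, Srebf1, Mvk, Fads2, Elovl6, Acat2, Acly and Sqle differed by -0.94 to -0.40. After subtraction, Insig1, Ebp, Fads2, Sqle and Acat2 were still called lower (5.19% of all genes) and Scd1 higher (8.02% of all genes). Dhcr7 (-1.69 ± 0.72), both Srebf genes, Mvk, Acly, Fasn, Elovl6 and Scd2 were not. Without mouse 3, 4 members were called, Scd1, Dhcr7, Insig1 and Ebp (16.3% of all genes in either direction), and without mouse 4, 8 were (21.1%).

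For EC, 1 member responded more strongly in Epi (Fads1, 0.48 ± 0.13, adjusted p = 0.0348, where 1.26% of all genes were called in this direction) and 1 less strongly (Pmvk, -0.86 ± 0.24, adjusted p = 0.0378, where 3.33% were). Neither was called after subtraction. Without Fib EC of mouse 1 the difference was 0.42 ± 0.12 for Fads1, which was still called, and -0.62 ± 0.22 for Pmvk, whose call was lost (adjusted p = 0.091). For IPFc no member was called (0.229% of all genes in either direction), 2 had an unadjusted p below 0.05 and DESeq2 called 0 (0.599% of all genes). For Me1 (0.63 ± 0.17, adjusted p = 0.177) a larger response in Epi than in Fib was therefore not shown.

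Neighbouring lipid pathways were examined in gene lists for comparison, in the same fits. In Epi TGF-β, 15 of 25 tested genes of other lipid synthesis enzymes fell and 2 rose, with a median of -0.56, where 20.1% of all genes were called lower and 21.0% higher. The same shares of all genes apply to the following counts in Epi TGF-β. Agpat2, which makes phosphatidic acid, fell by 1.33 (adjusted p = 9.8e-10), Mid1ip1, an activator of acetyl-CoA carboxylase, by 1.00 (adjusted p = 4.0e-08) and Acsl1, a fatty acyl-CoA ligase, by 0.99 (adjusted p = 2.4e-07). All 3 stayed called after subtraction. Of 10 tested isoprenoid branch enzymes 4 fell and 1 rose, and of 19 fatty acid oxidation genes 3 fell and 4 rose, which for the latter list is near the shares over all genes. The genes that rose included Pdk4, an inhibitor of pyruvate dehydrogenase (3.08 ± 0.19, adjusted p = 1.0e-10), and Cpt1a, which admits fatty acids to mitochondria (0.94 ± 0.11, adjusted p = 7.1e-07). Both were more abundant in the Fib than in the Epi fraction of vehicle cultures, with log2 differences of -3.22 and -1.14 for Epi against Fib, and both were still called after subtraction (adjusted p = 4.4e-05 and 0.0321). Of 12 genes of LXR targets, sterol storage and efflux 3 rose and 3 fell, also near those shares, among them the cholesterol exporter Abca1 at 1.95 ± 0.33 and the sterol receptor Nr1h3 at -1.47 ± 0.18.

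In Fib TGF-β, 10 of 25 other lipid synthesis enzymes fell and 1 rose, where 12.8% of all genes were called lower and 6.39% higher, and Elovl1 and Elovl5 remained called after subtraction (adjusted p = 0.0209 and 0.0361). Abca1 fell by 1.28 (adjusted p = 8.2e-05) and by 1.55 after subtraction. Its response differed between the fractions by 3.25 ± 0.40 (adjusted p = 4.8e-07). With EC in the Epi fraction, where 2.44% of all genes were called lower, 2 of 19 fatty acid oxidation genes fell, Acaa2 (-0.52 ± 0.10, adjusted p = 0.00262) and Cpt1a (-0.39 ± 0.10, adjusted p = 0.0336), and none rose. After subtraction the fold of Cpt1a was -0.56 and its call was lost (adjusted p = 0.0591). Of the 25 other lipid synthesis enzymes, 2 fell with EC and none rose: Lpcat1 (-0.63 ± 0.09, adjusted p = 1.7e-04) and Pcyt1a (-0.47 ± 0.08, adjusted p = 7.9e-04), which serve surfactant phosphatidylcholine. The AT2 marker sum was lower in the same libraries, as given above, and its part in these falls was not tested.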

How the data were processed

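Per the labels and the study's methods, the authors trimmed adapters (Trimmomatic 0.30) and deposited raw read counts per Ensembl gene for each library. The labels name GRCm39 and the methods GRCm38, and the aligner, counter and strand setting are not given in the sources used here. Libraries were grouped by their labels, and the mouse number there names the animal.

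From the counts, differences were tested with edgeR 4.0.16 (R 4.3.3; TMM scaling, quasi-likelihood test, Benjamini-Hochberg adjustment over all genes with a mean of at least 1 read, called at an adjusted p below 0.05). All 15 libraries of a fraction entered a single fit with the mouse as a block, and all 30 entered the fits between fractions. Deviations from the group mean had a mean correlation of 0.147 in Epi and 0.176 in Fib between libraries of the same mouse. Between mice it was -0.049 and -0.058. Because deviations cancel out within a group, these values largely follow from the same-mouse values and are no separate comparison. Levels of members are TMM-scaled CPM. Marker sums and the shares of the other fraction rest on CPM from library totals, without TMM scaling.

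To subtract the other fraction's RNA, its share, estimated from genes listed as its markers, was multiplied by the partner library of the same culture. Fib TGF-β of mouse 1 and Epi Vehicle of mouse 2 had no partner library. For them the mean of the other fraction's libraries with the same treatment was used. Alternatives were DESeq2 1.42.0, its size factors, other count filters, fits without the block or with the compared groups alone, and each mouse left out. Leaving out Fib EC of mouse 1 or Epi EC of mouse 4, with and without subtraction, was chosen after seeing the data. The scripts were tested on simulated data.

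The members and gene lists were chosen with earlier results of these data known. All 31 members are accounted for. Values per library are given for Srebf1, Srebf2, Insig1, Hmgcs1, Sqle, Fasn, Scd1, Scd2 and Acly in the main comparisons, and for the up to 3 called members per direction with the smallest adjusted p against vehicle. The results of 1 further gene list are not reported here.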

Additional observations from a re-analysis of the deposited data

Results flagged for a closer look

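In groups of 4 libraries, 18 of 186 combinations of member and group held 1 library far from the other 3, where chance gives about 1 in 20 for normally distributed values. All members are measured in the same libraries, so the combinations are not independent. Whether the count exceeds chance was not tested. The library was from mouse 4 in 9 cases, mouse 1 in 7 and mouse 3 in 2.

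Among the epithelial libraries of mouse 4, Stard4 (120.5 CPM), Idi1 (136.1 CPM), Cyp51 (275.9 CPM) and Msmo1 (187.7 CPM) were above the other vehicle libraries, Acat2 (116.6 CPM) and Msmo1 (258.3 CPM) above the other EC libraries, and Mvk (47.1 CPM) below the other IPFc libraries. In the epithelial libraries of mouse 1, Fdft1 was low with vehicle (116.5 CPM) and Fads1 was low with IPFc (146.4 CPM). Ebp was high with IPFc in mouse 3 (58.4 CPM).

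In Fib EC of mouse 1, the library with few long transcripts, Fasn (258.5 CPM), Elovl6 (40.4 CPM) and Fads2 (146.3 CPM) were low and Msmo1 (234.9 CPM) was high; the part of transcript length in these values was not tested. Idi1 was high in Fib EC of mouse 4 (59.6 CPM). With IPFc in the Fib fraction, Fasn was high in mouse 3 (991.7 CPM), Elovl6 was low in mouse 1 (40.1 CPM) and Fads1 was low in mouse 4 (248.4 CPM).

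The response to treatment differed between the fractions, by the interaction term, for these members. With EC, the difference of Epi minus Fib was -0.86 for Pmvk and 0.48 for Fads1. With TGF-β it was 1.93 for Scd1, and it was -1.25 for Dhcr7, -0.94 for Fasn, -0.87 for Scd2, -0.74 for Ebp, -0.71 for Srebf2, -0.69 for Insig1, -0.63 for Mvk, -0.59 for Elovl6, -0.56 for Srebf1, -0.54 for Acly, -0.49 for Fads2 and -0.40 for both Acat2 and Sqle, all on the log2 scale.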

How the results depend on the processing

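Counts of members called moved by more than 1.5 times under these alternatives. For EC in Epi (4 members) they were 9 with DESeq2, 2 with no replicate block, and 7 without Epi EC of mouse 4, with or without subtraction; for IPFc in Epi (5), 2 with no replicate block, 8 with the compared groups alone, 2 after subtraction and 10 without Epi EC of mouse 4. For EC in Fib (6) they were 14 with DESeq2, 10 with its size factors, 11 with no filter, 10 with the compared groups alone, 0 after subtraction, 18 without Fib EC of mouse 1, and 0 with both. For IPFc in Fib (0) the count was 1 without Fib EC of mouse 1. For TGF-β in Fib (10) it was 1 after subtraction, 17 without Fib EC of mouse 1 and 6 with both. For EC against IPFc in Fib (5) it was 9 with DESeq2, 1 with no replicate block, 2 with the compared groups alone, 0 after subtraction, 9 without Fib EC of mouse 1 and 0 with both. For the fraction difference it was, with EC (2), 5 with DESeq2, 4 with edgeR's filterByExpr, and 0 with no replicate block or after subtraction; with IPFc (0), 1 with no filter; and with TGF-β (14), 6 with no replicate block and 6 after subtraction. Shares of all genes called moved too. With EC in Fib they were 7.11% in the main fit, 10.4% with DESeq2, 0.194% after subtraction and 10.9% without Fib EC of mouse 1. With EC in Epi they were 4.41% in the main fit, 5.55% with DESeq2, 2.17% with no replicate block and 4.70% without Epi EC of mouse 4. With TGF-β in Fib they were 19.2% in the main fit, 5.22% after subtraction and 27.6% without Fib EC of mouse 1. The causes were not tested. The counts for TGF-β in Epi, for EC against IPFc in Epi and for Epi against Fib stayed within 1.5 times in every alternative run.

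Leaving out each mouse in turn gave 2 to 7 members for EC and 2 to 7 for IPFc in Epi, 1 to 15 for EC, 3 to 14 for TGF-β and 2 to 9 for EC against IPFc in Fib, and 0 to 1 for EC and 4 to 15 for TGF-β in the fraction difference. The share of all genes called also moved, from 2.33% to 3.97% for EC and 1.95% to 4.38% for IPFc in Epi. In Fib it ran from 1.21% to 11.2% for EC, 11.9% to 22.4% for TGF-β and 3.72% to 11.1% for EC against IPFc. In the fraction difference it ran from 1.22% to 4.21% for EC and 16.3% to 29.1% for TGF-β. Of 95 called values of single members, 29 lost their call with no replicate block. After subtraction 39 lost their call with the same direction, and a further 9 lost it and reversed.

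Directions reversed only after subtraction, and none of the reversed values was called. As planned, and then with the doubted library also left out, they were for Fads1 in Epi TGF-β -0.04 and -0.03, for Cyp51 in Fib EC -1.93 and -3.99 and against IPFc -1.41 and -3.34, for Pmvk in Fib EC against IPFc -0.15 and -1.22, and in Fib TGF-β 1.18 and 0.96 for Idi1, 1.40 and 1.08 for Cyp51 and 0.10 and 0.07 for Me1. With both changes alone, Cyp51 in Epi TGF-β was 0.02, Pmvk in Fib EC -1.28 and Lss in Fib TGF-β 0.00, and with subtraction alone Elovl6 in Fib EC was -0.02 and the fraction difference of Pmvk with EC 0.23. The subtraction removed many reads in Fib libraries, and SEs there reached 1.91.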
